A study of Mus musculus with 36 samples.

Results

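The genes described here encode the proteins of the cytosolic ribosome, the particle that translates nearly all cellular mRNA. Members were taken by name: symbols that start with Rpl or Rps and a digit, with *Rplp0*, *Rplp1*, *Rplp2* and *Rpsa* added, and with the *Rps6k* kinases and symbols containing -ps left out. The rule found 89 of the 24781 genes in the count table, 54 named for the large subunit and 35 for the small subunit. Core proteins of the ribosome account for 77 of them (46 large, 31 small). Another 10 are paralogues of a core gene, and *Rps19bp1* and *Rpl7l1* encode proteins that are not counted as parts of the mature ribosome. Among the paralogues, *Rps4l* is annotated as a transcribed pseudogene.

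The small subunit reads the mRNA and the large subunit joins the amino acids. A ribosome holds a single copy of nearly every core protein, apart from the acidic stalk proteins made from *Rplp1* and *Rplp2*, which sit on the protein made from *Rplp0* and recruit translation factors. The mRNAs of these proteins are short and abundant, and most begin with a 5′ terminal oligopyrimidine tract through which mTOR signalling sets their translation. Activated T cells are known for building up their stock of ribosomes before they divide, and macrophages adjust protein synthesis as their state changes.

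The libraries came from tumours that mice carried 7 days after intradermal inoculation of MC38, a mouse colon adenocarcinoma line. Each library was made from 100 sorted cells, either tumour-associated macrophages (TAMs; CD45+ CD11b+ F4/80 high) or CD8+ T cells (CD45+ TCRβ+ CD8+), and each transcript molecule was tagged with a barcode next to its poly(A) tail and counted once. For both cell types there were 3 groups of 6 independent libraries, 36 in all: wild-type (WT) mice, *muMt*-/- mice, and *muMt*-/- mice implanted with a pellet that releases GABA. The comparisons ask how tumour-infiltrating cells differ where B cells are missing, and how they differ between *muMt*-/- mice with and without GABA, a small molecule best known as a neurotransmitter. For the study as a whole, *muMt*-/- mice are given as C57BL/6J and WT mice as C57BL/6J or C57BL/6N. The substrain of each library is not given, and a substrain difference between the groups was not tested. The sex of the mice behind these libraries is not in the labels. The *muMt*-/- allele disrupts the membrane form of the immunoglobulin μ chain, so that mature B cells do not form, in every tissue and throughout life. *Ighm*, the gene it disrupts, had no entry in the count table, so the genotype could not be checked from it. The labels list no treatment for the WT mice or for *muMt*-/- mice without GABA, whereas the study's methods describe placebo pellets in both. The labels do not give the age of each mouse either.

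The CD8+ libraries held 22896 to 98015 molecules and the TAM libraries 100254 to 304100. WT libraries were the shallowest among CD8+ T cells (22896 to 76898, against 51064 to 77839 for *muMt*-/- and 65356 to 98015 with GABA) and the deepest among TAMs (206394 to 304100, against 100254 to 253608 and 151856 to 262606). Levels below are in CPM, the molecules of a gene per 1000000 molecules of its library. Where 3 values are given for a group, they are the lowest, the median and the highest of its 6 libraries. In bulk samples, fewer cells of a type and less RNA per cell cannot be told apart.

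Marker genes were compared between the sorted cell types. A list of 17 T cell markers summed to 4310.3, 6004 and 8353 CPM in WT CD8+ libraries, 2456, 5426 and 7249 in *muMt*-/- and 2959, 5372 and 8390.0 with GABA, and to at most 51.4 in any TAM library. A list of 22 macrophage markers summed to 19588, 23009 and 24712 in WT TAMs. In CD8+ libraries the same list summed to 186, 466 and 2435 in WT, 1169, 1815 and 8186 in *muMt*-/- and 362, 2660.1 and 4377 with GABA. It exceeded the T cell sum in replicate 1 of *muMt*-/- (8186 against 2456) and in replicates 1 and 3 of the GABA group (4377 against 2959 and 4211 against 3959). *Ctss*, which encodes a lysosomal protease, was the most abundant of them throughout, and *Adgre1*, which encodes F4/80, was at 0 in all 6 WT CD8+ libraries and detected in both other CD8+ groups. None of the 18 macrophage markers tested in CD8+ libraries passed the edgeR test described below for *muMt*-/- against WT, although 14 were higher at an unadjusted p under 0.05. B cell markers, 13 in the list, summed to at most 55.0 CPM in any library, with *Cd79a* and *Pax5* at 0 in all of them.

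Ribosomal protein mRNAs made up a large part of the molecules in both cell types. In WT TAMs, 10.2, 10.5 and 12.1% of all molecules came from the 89 genes (10.8 ± 0.716%, mean ± SD, n = 6). The share was 6.57, 7.88 and 9.22% in *muMt*-/- TAMs (7.94 ± 0.977%) and 8.95, 9.94 and 11.3% with GABA (10.1 ± 0.797%). All 6 *muMt*-/- libraries lay below all 6 WT libraries, and 5 of the 6 libraries with GABA lay above every *muMt*-/- library while 4 of the 6 lay below every WT library. The ratio of the group means was 0.733 for *muMt*-/- over WT, 1.27 for GABA over *muMt*-/- and 0.929 for GABA over WT.

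In CD8+ T cells the share was 16.3, 19.1 and 19.8% in WT (18.8 ± 1.33%), 13.2, 16.5 and 17.7% in *muMt*-/- (16.1 ± 1.67%) and 13.7, 18.3 and 21.2% with GABA (18.1 ± 3.22%). The CD8+ groups overlapped: 3 of 6 *muMt*-/- libraries lay below every WT library, and the GABA group ran from below to above the WT range. The *muMt*-/- mean was 0.857 of the WT mean. Every CD8+ library had a larger share than every TAM library of the same group of mice, by 1.73-fold in WT, 2.02-fold in *muMt*-/- and 1.79-fold with GABA on the means.

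Both subunits took part in the lower share of *muMt*-/- TAMs, the large subunit by more. Large-subunit genes gave 6.07% of molecules in WT and 4.28% in *muMt*-/- TAMs, a ratio of 0.705. Small-subunit genes gave 4.75% and 3.66%, a ratio of 0.770. Molecules on large-subunit genes per molecule on small-subunit genes were 1.26, 1.28 and 1.29 in WT TAMs, 1.12, 1.16 and 1.22 in *muMt*-/- TAMs and 1.08, 1.23 and 1.26 with GABA. Every *muMt*-/- TAM library, with or without GABA, had a lower ratio than every WT TAM library, and the lowest of all was replicate 1 of the GABA group. WT TAMs were also the deepest TAM group. Among *muMt*-/- TAMs, replicates 5 and 3 (253608 and 209198 molecules) had the highest ratios, 1.22 and 1.19. Replicate 4 (145593) had 1.12, and the shallowest, replicate 1 (100254), had 1.15. The part of depth in the shares and ratios of TAMs was not tested. In CD8+ T cells the ratio was 1.09, 1.18 and 1.23 in WT, 1.15, 1.21 and 1.22 in *muMt*-/- and 1.15, 1.24 and 1.30 with GABA, groups that overlapped one another.

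**Figure D1:**
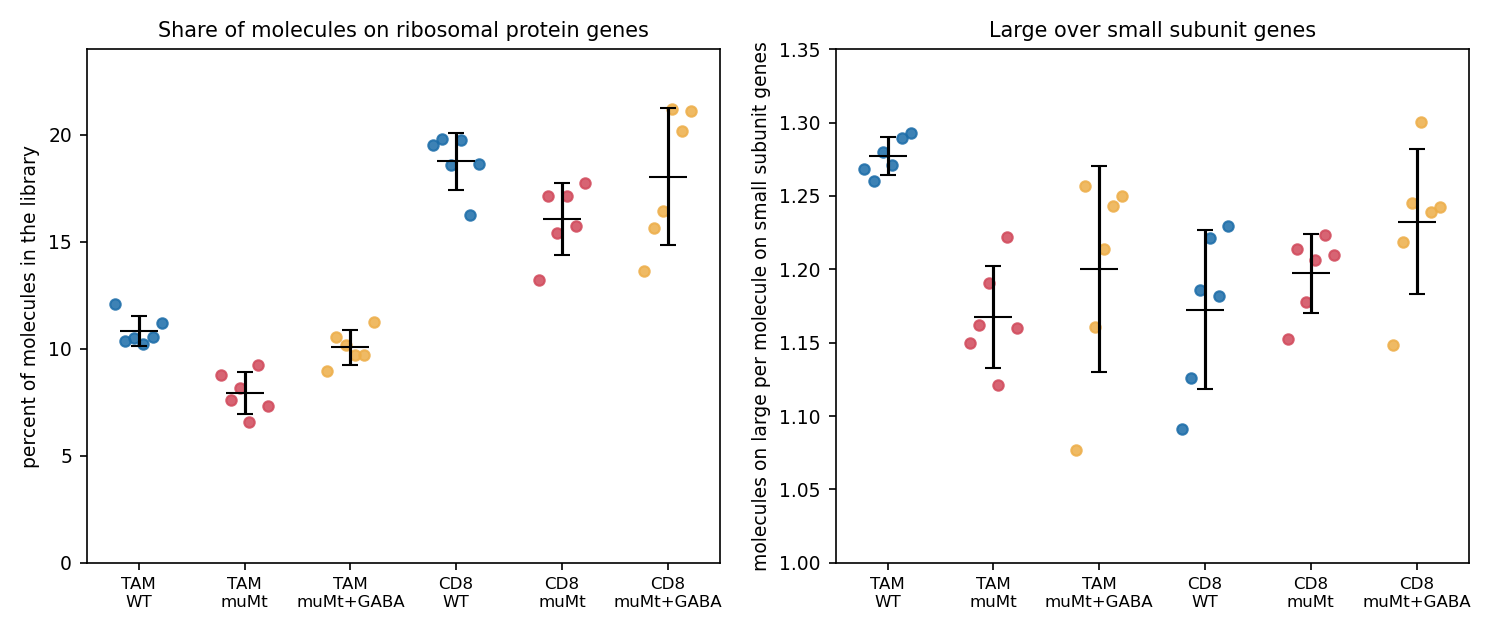
Share of molecules from the 89 ribosomal protein genes (percent) and molecules on large-subunit genes per molecule on small-subunit genes in each of the 36 libraries, with the mean and SD of each group of 6. The *muMt*-/- TAM libraries lay between 6.57% and 9.22%, below all WT TAM libraries, and every CD8+ library lay above all TAM libraries of the same group.

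The 77 core members differed in mRNA level by 6.01-fold in WT CD8+ T cells and by 5.33-fold in WT TAMs, in CPM and on the group means. Counting the poly(A) end gives a single tag per molecule, so levels are ordered in CPM. An order in CPM per kilobase of mRNA is given in addition, and it is not an order of molecule numbers. In CPM, in WT CD8+ T cells, the order began with *Rpsa* (5400.4), which encodes a small-subunit protein also known as the laminin receptor precursor, followed by *Rps26* (5133), *Rplp1* (4549) and *Rps27* (4526). It ended with *Rpl28* (1029), *Rpl36a* (993), *Rpl30* (915) and *Rpl26* (899). In CPM per kilobase, the top was *Rps27* (13118), *Rps29* (9862), *Rplp1* and *Rps26*, and the bottom was *Rpl15* (732) and *Rps15a* (546). The second scale divides by the length of a single annotated transcript per gene. For *Rps15a* that transcript has 5179 bases, the longest of the small-subunit genes, which places it last there. It was not among the lowest 4 in CPM.

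WT TAMs showed a different top of the order. In CPM it was *Rplp1* (3097), *Rps29* (3019), *Rpl41* (2888), which encodes the smallest protein of the ribosome, and *Rps12* (2096). The bottom in CPM was *Rpl34* (708), *Rpl26* (686), *Rpl36a* (615) and *Rpl30* (581), so *Rpl26*, *Rpl36a* and *Rpl30* were among the lowest 4 in both cell types. In CPM per kilobase the order ran from *Rps29* (7741) to *Rps15a* (239). In *muMt*-/- TAMs, *Rps26* (2369.8 CPM) stood first and *Rpl28* (407 CPM) last.

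Gene by gene, the members were tested in a fit of all genes with edgeR's quasi-likelihood F-test, with p adjusted by the Benjamini-Hochberg method over all genes tested and a threshold of 0.05. In TAMs 86 of the 89 members passed the filter on low numbers, a mean of more than 1 normalized molecule per library. For *muMt*-/- against WT, 29 of the 86 fell and 0 rose, where 1.02% of the 9469 genes tested fell (97 fell, 97 rose). At an unadjusted p under 0.05, 59 members were lower, against 8.15% of all genes. The median log2 fold change of the members was −0.47, against −0.05 for all genes, and 83 of 86 values were below 0. DESeq2 called 42 members lower, against 1.26% of all genes. For 46 members all 6 *muMt*-/- libraries were below all 6 WT libraries in CPM, which held for 1.84% of all genes.

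Among large-subunit members 21 of 51 fell, with a median of −0.48. *Rpl28*, which encodes a large-subunit protein without a counterpart in budding yeast, was at 761, 892 and 1157 CPM in WT TAMs and 192, 444 and 535 in *muMt*-/- TAMs. The highest *muMt*-/- library was below the lowest WT library, and replicate 4 of the *muMt*-/- group was the lowest. Its log2 fold change was −1.14 ± 0.20 (SE; edgeR adjusted p = 0.00191), the largest fall among the core members. *Rpl10* encodes a protein that joins the large subunit late in its assembly, and it was at 1489.6, 1598 and 2118 CPM in WT and 488, 961 and 1104 in *muMt*-/- TAMs. The groups did not overlap, and the log2 fold change was −0.86 ± 0.19 (edgeR adjusted p = 0.00774).

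*Rpl7a*, another large-subunit gene, was at 1029, 1107 and 1266 CPM in WT TAMs and 419, 649 and 738 in *muMt*-/- TAMs. The groups were apart, all 6 *muMt*-/- values being lower, with a log2 fold change of −0.85 ± 0.17 (edgeR adjusted p = 0.00349). *Rpl37*, which encodes a zinc-binding protein of the large subunit, was at 862, 987 and 1294 in WT and 282, 576 and 808 in *muMt*-/- TAMs. The groups did not overlap, though the highest *muMt*-/- library came close to the lowest WT library, and the log2 fold change was −0.84 ± 0.20 (edgeR adjusted p = 0.0206). The *Rpl37* call was lost without replicate 1 of the WT TAMs (log2 fold change −0.77) and without replicate 4 of the *muMt*-/- TAMs (−0.71). *Rpl14*, with a log2 fold change of 0.05, was the large-subunit member with a value above 0.

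The 3 genes of the acidic stalk were among those that fell. *Rplp0*, the base of the stalk, was at 1647, 1838 and 2013 CPM in WT TAMs and 1012, 1258 and 1562 in *muMt*-/- TAMs, without overlap. Its log2 fold change was −0.50 ± 0.14 (edgeR adjusted p = 0.0426). *Rplp1* and *Rplp2*, named here after their values were seen, had log2 fold changes of −0.61 and −0.55 (edgeR adjusted p = 0.0155 and 0.0227), and for both all 6 *muMt*-/- libraries were below all 6 WT libraries. Without *muMt*-/- replicate 4 none of the 3 passed (−0.53, −0.57 and −0.49), and without WT replicate 1 *Rplp1* alone did. *Rplp0* passed in 7 of the 18 fits that left out 1 library, *Rplp1* in 17 and *Rplp2* in 16. With depth as a covariate the values were −0.36, −0.42 and −0.39 and none passed.

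Among small-subunit members 8 of 35 fell, with a median of −0.39. *Rps27*, which encodes a zinc-finger protein of the small subunit, was at 1249, 1562 and 1919 CPM in WT TAMs and 467, 765 and 1028 in *muMt*-/- TAMs. The groups did not overlap, and the *muMt*-/- level was 0.498 of the WT level (log2 SE 0.21; edgeR adjusted p = 0.00666). *Rps19*, needed for maturation of the small subunit and mutated in Diamond-Blackfan anaemia, was at 1073, 1397 and 1589.7 in WT and 412, 835 and 859.5 in *muMt*-/- TAMs. Its *muMt*-/- libraries were also all below WT, replicate 4 by far the most, with a log2 fold change of −0.83 ± 0.19 (edgeR adjusted p = 0.0122). Without that replicate the *Rps19* value was −0.71 and did not pass.

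Other small-subunit members stayed on the other side of the threshold. *Rpsa* was at 1712, 1990.0 and 2273 CPM in WT TAMs and 1023, 1365 and 1664 in *muMt*-/- TAMs; the groups did not overlap, yet the log2 fold change of −0.49 did not pass (edgeR adjusted p = 0.0514). *Rps6*, whose protein is phosphorylated by S6 kinase, likewise had no overlap and a log2 fold change of −0.52 (edgeR adjusted p = 0.0516). *Rps27a*, translated as a fusion with ubiquitin, had a log2 fold change of −0.09 (edgeR adjusted p = 0.85). *Rps26*, which encodes a protein near the channel where mRNA leaves the small subunit, was at 1855, 1965 and 2305 in WT and 1813, 2222 and 3282 in *muMt*-/- TAMs. Its groups overlapped, 3 *muMt*-/- libraries being above every WT library, and its log2 fold change of 0.26 was the highest of the core members.

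**Figure D2:**
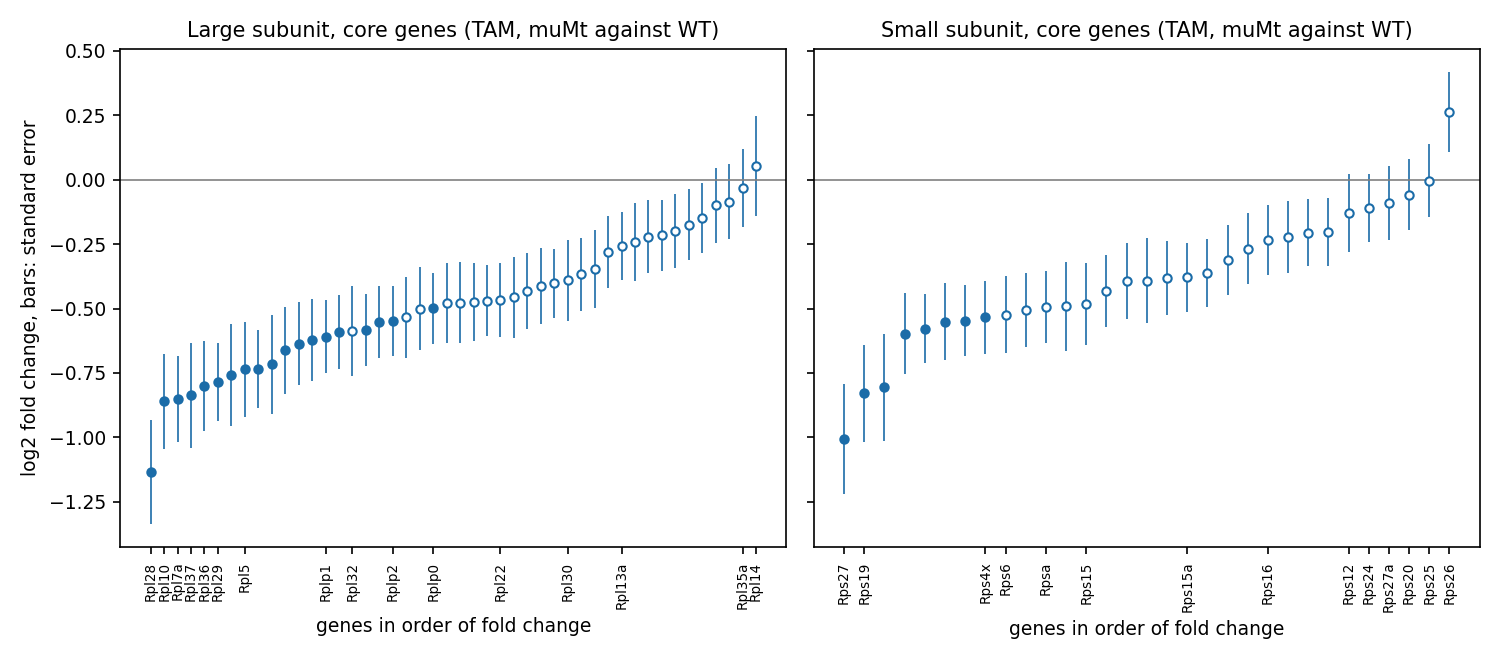
Log2 fold changes of the 77 core members in *muMt*-/- against WT TAMs, by subunit, with bars of 1 standard error, filled circles for members that passed the edgeR test, and labels for some genes named in the text. Of these, 19 of 46 large-subunit and 8 of 31 small-subunit genes fell, and *Rpl14* and *Rps26* lay above 0.

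The count of 29 depended on depth and on single libraries. With depth (log2 of the molecules in a library) added as a covariate, 0 of 86 members passed in edgeR, 25 had an unadjusted p under 0.05, and the median was −0.28. The share and median of all genes in that fit are not given. These values therefore do not show whether the members still differed from all genes. The log2 fold changes were then −0.78 for *Rpl28*, −0.59 for *Rpl10*, −0.60 for *Rpl7a*, −0.41 for *Rpl37*, −0.53 for *Rps27* and −0.61 for *Rps19*. A robust fit ended the calls of *Rps27* and *Rpl37*. Leaving out 1 library gave 11 calls without WT replicate 1, 16 without WT replicate 6, 17 without *muMt*-/- replicate 2, 8 without *muMt*-/- replicate 4 and 46 without replicate 1 of the GABA group, and the median stayed between −0.54 and −0.40.

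Other features of the *muMt*-/- TAM libraries moved with the ribosomal protein genes. RNAs kept in the nucleus, a sign of RNA quality, summed to 3175, 3662 and 3891 CPM in WT, 4688, 5770.5 and 10474 in *muMt*-/- and 3487, 3884 and 5341 with GABA, with *Malat1* the most abundant and *Xist* at 0. All *muMt*-/- values were above all WT values, replicate 4 being the highest, and 2 of 3 tested RNAs rose, *Neat1* by 1.22 and *Malat1* by 0.82 log2 (edgeR adjusted p = 8.6e-05 and 0.00385). The 22 macrophage markers summed to 16675, 18816 and 20947 in *muMt*-/- TAMs, with 4 of 21 tested lower (*Trem2*, *Lyz2*, *C1qb*, *C1qc*), 1 higher (*Itgam*), *Ctss* the most abundant and none at 0. The 10 neutrophil and monocyte markers summed to 1430.3, 1623 and 2088 in WT and 1463, 3245 and 3349.7 in *muMt*-/- TAMs, with 2 of 9 higher (*Ccr2*, *Plac8*), *Ccr2* the most abundant and *Retnlg* at 0. The 17 markers of tumour and stroma cells summed to 158, 464 and 5413 and 161, 557 and 2122, with 1 of 8 tested higher (*Cdh1*), *Col3a1* the most abundant and *Epcam*, *Krt18*, *Krt19* and *Krt20* at 0 in both. Of these markers *Malat1*, *Neat1* and *Trem2* passed in all 18 fits that left out 1 library, and the others in 6 to 17. With depth as a covariate *Neat1* passed (1.11) and every other of these markers lost its call, among them *Malat1* (0.82), *Trem2* (−0.71) and *Ccr2* (0.41). The part of RNA quality and of cell composition in the lower ribosomal protein mRNAs was not tested.

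With GABA nearly all members were higher than in *muMt*-/- TAMs, without a member passing. For *muMt*-/- TAMs with GABA against those without, 0 of 86 members passed in edgeR (0.0211% of all genes passed in either direction), 54 were higher at an unadjusted p under 0.05 (5.15% of all genes) and DESeq2 called 15 higher (0.306% of all genes). The median was 0.34 against 0.06 for all genes, equal in both subunits at this precision (0.34 and 0.34), and 85 of 86 values were above 0. In the same comparison *Malat1* (−0.66) and *Neat1* (−0.70), 2 of 3 nuclear RNAs tested, were lower at an unadjusted p under 0.05 without passing. So were 2 of 9 neutrophil and monocyte markers, which summed to 1805, 2214 and 2449 CPM with GABA. Of 21 macrophage markers 5 were lower and 1 higher at that level without passing, where 313 of 9469 genes were lower. The macrophage list summed to 12347, 20771 and 22559 CPM with GABA. The part of these features in the members' values was not tested. Both comparisons use the same *muMt*-/- libraries, so their values are given side by side and not related to each other.

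*Rplp0*, the base of the acidic stalk, was at 1528, 1899 and 2003 CPM with GABA, where 5 of 6 libraries were above every *muMt*-/- library; its log2 fold change was 0.51 ± 0.14 (edgeR adjusted p = 0.195). *Rps4x*, the X-linked copy of a small-subunit protein gene, was at 769, 930.1 and 1162 in *muMt*-/- TAMs and 1080.0, 1323 and 1769.9 with GABA. Again 5 of 6 libraries were above, and the log2 fold change was 0.51 ± 0.14 (edgeR adjusted p = 0.208). *Rps15*, a small-subunit gene, was at 514, 718 and 824 and 736, 1007 and 1508, with 5 of 6 libraries above and a log2 fold change of 0.55 ± 0.16 (edgeR adjusted p = 0.209). DESeq2 called these 3 genes higher. *Rps26*, at 1663, 2272 and 2976 with GABA, was the exception to the common direction, with a log2 fold change of −0.05 and overlapping groups.

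Replicate 1 of the GABA group weighed on this comparison. Of the 77 core members, 46 had their lowest and 12 their highest value of the group in that library (in the *muMt*-/- TAMs, replicate 4 was the lowest for 48); *Rpl28* was at 217 there against 446 to 785 in the other 5. Without it edgeR called 8 members higher (*Rpl37*, *Rps4x* and *Rps19* among them, named after their values were seen), and without *muMt*-/- replicate 5 it called *Rpl30*. Its nuclear RNA sum was 5340.6 CPM, the highest of its group, and its macrophage marker sum of 12347 the lowest of all TAM libraries.

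For GABA-treated *muMt*-/- against WT TAMs, 0 of 86 members passed in edgeR (0.0739% of all genes passed in either direction), 11 were lower (3.28% of all genes) and 1 higher (3.74%) at an unadjusted p under 0.05, and DESeq2 called *Rpl28* and *Rpl29* lower (0.0845% of all genes). The median was −0.10, against 0.02 for all genes, with −0.13 for the large subunit and −0.03 for the small. Leaving out 1 library moved the members' median between −0.14 (without GABA replicate 6) and −0.04 (without GABA replicate 1). At an unadjusted p under 0.05, 5 of 21 macrophage markers and 3 of 20 proliferation genes were lower. At that level 2 of 3 nuclear RNAs and 2 of 9 neutrophil and monocyte markers were higher, and none of these genes passed. The part of these features in the members' values was not tested. *Rpl28* was at 217, 520.1 and 785 CPM with GABA, and 5 of 6 libraries were below every WT library. Its log2 fold change was −0.85 ± 0.20 (edgeR adjusted p = 0.0909), and it passed without *muMt*-/- replicate 4 (−0.86) and without replicate 6 of the GABA group (−1.03).

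*Rpl29*, a large-subunit gene, was at 702, 784 and 884 CPM in WT TAMs and 329, 548 and 647 with GABA, without overlap, and its log2 fold change of −0.54 did not pass (edgeR adjusted p = 0.234). *Rpl36* was at 766, 864 and 1125 and 369, 654 and 776, with 5 of the 6 GABA libraries below and a log2 fold change of −0.51 (edgeR adjusted p = 0.436). On the other side, *Rps12*, *Rps20* and *Rpl35a* had values of 0.30, 0.26 and 0.29 (smallest edgeR adjusted p = 0.711). For these 3 the highest library of the GABA group was replicate 1, at 3589, 2739 and 2812 CPM.

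In CD8+ T cells 85 of 89 members were tested, among 6663 genes. For *muMt*-/- against WT 0 members passed in edgeR (0.0% of all genes), 1 was lower (*Rps27rt*; 0.795% of all genes) and 1 higher (*Rps27l*; 5.37%) at an unadjusted p under 0.05, and DESeq2 called 0, with 12 at an unadjusted p under 0.05 in either direction (3.33% of all genes). The median of the members was −0.06 and that of all genes 0.15, a difference of −0.22. Leaving out 1 library moved the members' median between −0.15 (without WT replicate 2) and −0.01 (without WT replicate 4). The median of all genes moved with the scaling, from 0.15 under edgeR's factors to 0.06 under DESeq2's and 0.05 under total molecules, while the members stayed 0.22 to 0.25 below it. The WT CD8+ group had the lowest mean depth (43807 molecules) and the lowest median macrophage marker sum, and the part of depth and of other cells in these values was not tested.

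*Rps27rt*, annotated as a retrotransposed copy of *Rps27*, was at 1964, 2213 and 3179.6 CPM in WT and 1256, 1406 and 1770.0 in *muMt*-/- CD8+ T cells. The groups did not overlap, and the log2 fold change was −0.58 ± 0.18 (edgeR adjusted p = 0.377). *Rps27* itself was at 2532, 4746 and 5896 and 1819, 2391 and 4017, with 3 of 6 libraries below every WT library and a log2 fold change of −0.54 ± 0.28 (edgeR adjusted p = 0.839). *Rps24*, a small-subunit gene, had a value of −0.27 (edgeR adjusted p = 0.89). In the other direction, *Rps27l*, a paralogue of *Rps27* and a known p53 target, was at 112, 129 and 306 and 189, 286 and 369, of which the upper 3 exceeded all WT values, at a log2 fold change of 0.75 ± 0.29 (edgeR adjusted p = 0.643). *Rps25* had a value of 0.23 (edgeR adjusted p = 0.921).

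For *muMt*-/- CD8+ T cells with GABA against those without 0 members passed in edgeR (0.0% of all genes), 17 were higher (2.01% of all genes) and *Rps26* was lower (1.7%) at an unadjusted p under 0.05, and DESeq2 called 0, with 14 at that level in either direction (2.0% of all genes). The median was 0.21, against 0.03 for all genes, and 80 of 85 values were above 0. *Rpl14* (0.60) and *Rpl35a* (0.52), both of the large subunit, each had 5 of 6 GABA libraries above every other *muMt*-/- library, with replicate 1 the highest at 2265 and 4050.4 CPM. *Rps26* was at 3355, 4516 and 5743 without and 2835, 3089 and 3727 with GABA, 4 of 6 libraries being below, at a log2 fold change of −0.46 ± 0.17 (edgeR adjusted p = 0.999). *Rpl6* and *Rpsa* had values of −0.12 and −0.09.

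For GABA-treated *muMt*-/- against WT CD8+ T cells 0 members passed in edgeR (0.0% of all genes), 10 were higher (5.99% of all genes) and 2 lower (*Rps27rt*, *Rps26*; 0.9%) at an unadjusted p under 0.05, and DESeq2 called 0 members (0.015% of all genes), with 6 at that level in either direction (3.33%). The median of 0.18 stood beside 0.21 for all genes, and relative to all genes it was −0.03 to −0.06 over the 3 scalings. Without 1 library the members' median ran from 0.06 (WT replicate 2 left out) to 0.23 (GABA replicate 2 left out). The sign of the members' own median was not kept across settings, as it was 0.00 with DESeq2's factors and −0.05 with edgeR's filterByExpr filter. Of 18 macrophage markers 13 were higher at an unadjusted p under 0.05 without passing, with a median of 2.04 over the list. Mean depth was 81364 molecules with GABA and 43807 in WT. The part of depth and of other cells was not tested here either. *Rpl35a* (0.62) and *Rps15* (0.57) were among the higher members, both at an edgeR adjusted p of 0.458. *Rps27rt* was at 888, 1613 and 1898 CPM with GABA, all 6 libraries below WT, with a log2 fold change of −0.45 (edgeR adjusted p = 0.593). *Rps26* (−0.42) and *Rpsa* (−0.16) were also below 0.

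CD8+ T cells and TAMs of the same group of mice were compared in a fit of all 36 libraries. There 85 members were tested among 8477 genes. In WT mice 32 members were higher in CD8+ T cells (5.99% of all genes), 15 of the large and 17 of the small subunit, and 1 was lower (16.8% of all genes). The median was 0.37, against −0.36 for all genes, so the members stood 0.73 above it. The median of all genes and the split of calls depended on the scaling: 508 genes were higher and 1420 lower under edgeR's factors, 632 and 1176 under DESeq2's, 760 and 968 under total molecules. The higher members numbered 32, 57 and 66 under these, and their distance from the median of all genes stayed between 0.73 and 0.76. Without scaling factors, 61 members had all 6 CD8+ libraries above all 6 TAM libraries in CPM, which held for 4.48% of all genes.

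In *muMt*-/- mice 72 of 85 members were higher in CD8+ T cells (7.71% of all genes; 43 large, 29 small) and 0 lower (13.6% of all genes), with a median of 0.84, or 0.93 above that of all genes (−0.10). With GABA 67 were higher (7.93% of all genes; 41 large, 26 small) and 0 lower (14.1% of all genes), with a median of 0.70, or 0.82 above that of all genes (−0.12). Under total molecules the calls of all genes were 966 higher and 832 lower in *muMt*-/- mice, against 654 and 1156 under edgeR's factors, and with GABA 851 and 1005, against 672 and 1197. Leaving out single libraries gave 22 to 41, 67 to 77 and 64 to 76 higher members for WT, *muMt*-/- and GABA. RNAs kept in the nucleus summed to 2965, 4239 and 4944 CPM in WT CD8+ libraries, 2062, 3343 and 5730.5 in *muMt*-/- and 2174, 3069 and 4055 with GABA. Against TAMs 0 of 3 tested passed in WT mice, *Malat1* (−1.09) and *Neat1* (−1.08) were lower in *muMt*-/- mice and *Malat1* with GABA (−0.61). The last call was lost in 4 of 36 fits that left out 1 library (as near 0 as −0.42) and with depth as a covariate (−0.60). The part of RNA quality in the members' values was not tested.

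**Figure D3:**
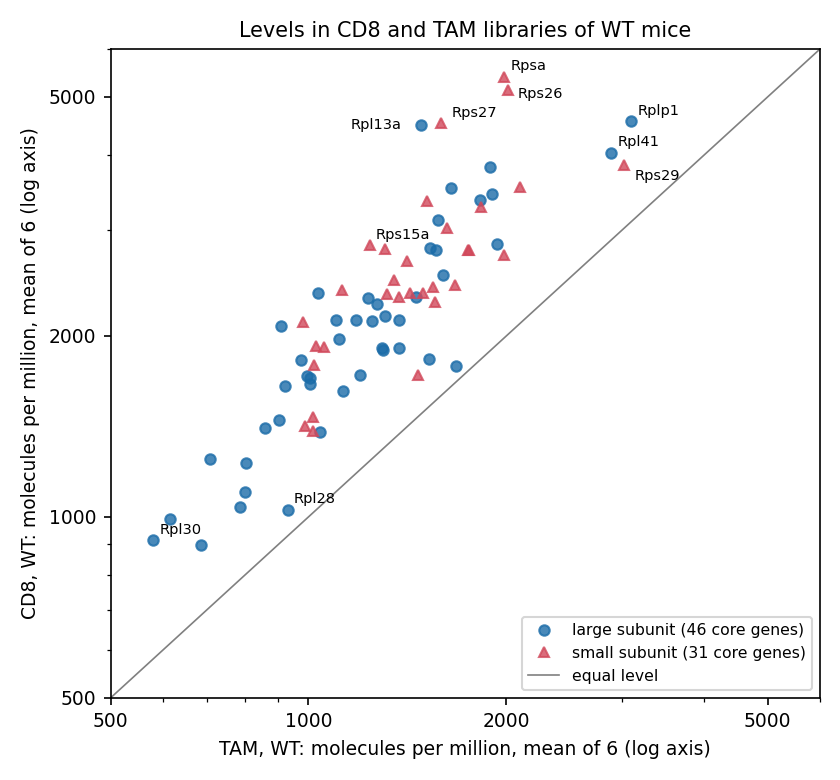
Mean CPM of each of the 77 core members in 6 WT CD8+ libraries against 6 WT TAM libraries, on log axes, by subunit, with the line of equal levels. All 77 lie above the line, *Rpl13a*, *Rps27* and *Rpsa* the farthest and *Rpl10* and *Rpl28* the nearest.

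*Rpl13a*, a large-subunit gene whose protein is also known to leave the ribosome in monocytic cells treated with interferon γ, was at 3672, 4366 and 5537 CPM in WT CD8+ T cells and 1373, 1433 and 1733 in WT TAMs. The groups were far apart, and the log2 fold change was 1.20 ± 0.15 (edgeR adjusted p = 6.65e-09), with 1.30 in *muMt*-/- mice and 1.09 with GABA. *Rpsa* was at 5016, 5397 and 5773 in CD8+ T cells and 1712, 1990.0 and 2273 in TAMs. It also showed no overlap, with a log2 fold change of 1.07 ± 0.15 (edgeR adjusted p = 6.07e-08), and 1.52 in *muMt*-/- mice (edgeR adjusted p = 5.73e-12).

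*Rps27* was at 2532, 4746 and 5896 CPM in WT CD8+ T cells, all above WT TAMs, with log2 fold changes of 1.12 in WT, 1.62 in *muMt*-/- mice and 1.73 with GABA (edgeR adjusted p = 0.00125, 9.25e-06 and 2.04e-06). *Rps15a* was at 2184, 2863 and 3244 in CD8+ T cells and 1117, 1244 and 1362 in TAMs of WT mice, and its values were 0.82 in WT and 1.11 with GABA (edgeR adjusted p = 3.09e-05 and 5.95e-08). Both genes encode small-subunit proteins, and neither had a WT CD8+ library within the TAM range. *Rps26* ranged widely among WT CD8+ libraries, at 3173, 4518 and 7475, above WT TAMs throughout; its log2 fold change of 0.92 (edgeR adjusted p = 3.3e-05) turned to −0.19 with depth as a covariate, which also ended the WT call of *Rps27* (1.85).

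Among large-subunit genes that led in the other groups of mice, *Rpl5*, whose protein carries 5S ribosomal RNA into the ribosome, was at 1291, 1778 and 2295 CPM in *muMt*-/- CD8+ T cells and 275, 558 and 647 in *muMt*-/- TAMs. The groups did not overlap, with a log2 fold change of 1.52 ± 0.22 (edgeR adjusted p = 2.47e-07). *Rpl28* and *Rpl36* had values of 1.34 and 1.29 with GABA (edgeR adjusted p = 2.83e-05 and 7.25e-06). For each, 5 of 6 CD8+ libraries were above every TAM library, and replicate 1 was the lowest of the CD8+ group. *Rps27a*, the ubiquitin fusion, had a value of 0.19 in WT mice (edgeR adjusted p = 0.432).

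The higher members in WT numbered 14 without a filter on low numbers (3.23% of all genes), 12 with depth as a covariate (1.79%), 68 with filterByExpr (18.8%) and 57 by DESeq2 (7.66%). Depth and cell type cannot be told apart, since every WT CD8+ library was shallower than every WT TAM library.

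Whether the *muMt*-/- genotype acted differently on the 2 cell types was tested as the difference of the responses (TAM minus CD8+). In edgeR 0 of 85 members passed (0.0118% of all genes passed in either direction), 30 were lower at an unadjusted p under 0.05 (8.32% of all genes), and DESeq2 called 0 (0.106% of all genes), with 11 at that level in either direction (7.08%). The median of the members was −0.43 and that of all genes −0.30, so the members stood −0.13 from it. These medians moved with the setting: the members' was −0.19 with DESeq2's factors and by DESeq2, and −0.17 with depth as a covariate, where that of all genes was also −0.17. *Rpl7a* (−1.06 ± 0.26), *Rpl28* (−1.38 ± 0.36) and *Rpl29* (−0.93 ± 0.26) had the smallest p among the negative values (edgeR adjusted p = 0.13, 0.14 and 0.217). *Rpl7a* and *Rpl28* passed when the fit held only the 4 groups compared (−1.06 and −1.37) and with no filter on low numbers (−1.12 and −1.44). Among the positive values *Rps26*, *Rpl14* and *Rps24* had the smallest p, with log2 fold changes of 0.19, 0.20 and 0.12. Of 21 macrophage markers 16 were lower at an unadjusted p under 0.05 in the same difference, with a median of −2.51 over the list. At that level 2 of 3 nuclear RNAs were higher, and no gene of either list passed. The part of other cells and of RNA quality in the members' values was not tested.

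For the response to GABA, 0 members passed in edgeR (0.0% of all genes), 1 had an unadjusted p under 0.05 in either direction (4.53% of all genes) and DESeq2 called 0, with 6 at that level (4.26%). The median was 0.11 against 0.01, and without 1 library it ran from 0.05 to 0.20. The member with p under 0.05 was *Rpsa* (0.50 ± 0.21; edgeR adjusted p = 0.994), followed by *Rpl36a* (0.46) and *Rps4x* (0.41). *Rps16* and *Rpl14* were toward the other end (−0.35 and −0.42).

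Paralogues share sequence with their parent genes, so tags near the poly(A) end can be split between them, and their values are uncertain. The transcripts of *Rps27* and *Rps27rt* were 100% identical over 341 aligned bases, those of *Rpl32* and *Rpl32l* 97.5% over 398, and those of *Rpl37* and *Rpl37rt* 89.4% over 555. The other pairs (*Rps27l*, *Rpl36al*, *Rpl22l1*, *Rpl39l*, *Rps4l*, *Rpl3l* and *Rpl10l* with their parents) had 77.2% to 85.2% identity. *Rpl32l* was at 23.7, 38.2 and 46.0 CPM in WT TAMs and 0, 8.80 and 12.96 in *muMt*-/- TAMs. Even its highest *muMt*-/- library was below WT, and it fell by 2.25 log2 (edgeR adjusted p = 0.00553), whereas its parent *Rpl32* had a log2 fold change of −0.59 (edgeR adjusted p = 0.0652). In *muMt*-/- TAM libraries of 100254 to 253608 molecules, such *Rpl32l* levels stand for very few molecules, so the size of its fall is uncertain. The *Rpl32l* call passed in all 18 fits that left out 1 library and was lost with depth as a covariate (−2.06).

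*Rpl22l1*, a paralogue of *Rpl22*, was at 145, 162 and 186 CPM in WT TAMs and 55.0, 91.2 and 129.7 in *muMt*-/- TAMs, again without overlap, and it fell by 0.80 log2 (edgeR adjusted p = 0.0317; passed in 11 of 18 fits that left out 1 library, and not without *muMt*-/- replicate 4, at −0.71), next to −0.47 for *Rpl22* (edgeR adjusted p = 0.0806). In CD8+ T cells against TAMs it had values of 1.46 in *muMt*-/- mice and 1.02 with GABA (edgeR adjusted p = 7.08e-06 and 0.000299), of which the second did not pass with depth as a covariate. *Rps27rt* was at 594, 674 and 788 in WT TAMs, a level far below WT CD8+ T cells, and its log2 fold change between the cell types was 1.44 ± 0.19 (edgeR adjusted p = 1.1e-08). *Rps27l* went the other way: it was at 204, 289 and 344 in WT TAMs, 4 of 6 WT CD8+ libraries were below that range, and its value was −0.95 ± 0.24 (edgeR adjusted p = 0.00183). That call was lost with total molecules (−0.62) and with depth as a covariate (−0.03).

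For *muMt*-/- against WT TAMs the remaining paralogues had log2 fold changes of −0.60 (*Rpl37rt*), −0.39 (*Rps27rt*), −0.36 (*Rpl36al*), −0.32 (*Rps27l*) and 0.74 (*Rps4l*), none of which passed (smallest edgeR adjusted p = 0.0861). *Rps19bp1* and *Rpl7l1*, which are not ribosomal proteins, had values of −0.66 and −0.18. Members left out of the tests were hardly detected. *Rpl10l* had no molecule in any of the 36 libraries, *Rpl3l* had 7 in 6 TAM libraries and 0 in CD8+ T cells, *Rpl39l* had 1 in TAMs and 3 in CD8+ T cells, and *Rps4l*, tested in TAMs only, had 2 in CD8+ T cells.

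The rule by symbol leaves out some proteins of the cytosolic ribosome. *Fau* encodes a small-subunit protein made as a fusion with a ubiquitin-like protein, and *Rack1* encodes a scaffold on the small subunit. In *muMt*-/- against WT TAMs their log2 fold changes were −0.51 and −0.47, of which *Fau* passed (edgeR adjusted p = 0.0485 and 0.0707). *Fau* was at 1962, 2010.4 and 2200.0 CPM in WT and 968, 1433 and 1716 in *muMt*-/- TAMs, without overlap, and it passed in 4 of 18 fits that left out 1 library. Both were higher in CD8+ T cells than in TAMs in *muMt*-/- mice and with GABA, and neither passed in WT mice. *Fau* in *muMt*-/- mice and *Rack1* with GABA each lost the call in 4 of 36 fits that left out 1 library, and *Fau* passed in neither group with depth as a covariate (0.61 and 0.67).

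Lists of genes that act around the ribosome are given beside the share of all genes. In *muMt*-/- against WT TAMs, where 1.02% of all genes fell and the median of all genes was −0.05, 1 of 71 ribosome biogenesis genes fell, with a median of −0.21. It was *Eif6*, whose protein keeps immature large subunits from joining small ones (−0.93; edgeR adjusted p = 0.0273; passed in 13 of 18 fits that left out 1 library). A list of 23 other mRNAs of translation, most with known oligopyrimidine tracts, also holds *Fau* and *Rack1*; there *Fau* fell and the median was −0.24. Of 18 genes of the mTOR pathway and its translational targets 0 passed in edgeR (0 at an unadjusted p under 0.05) with a median of −0.19, and of 12 transcription factors known to act on ribosomal genes 0 passed (0 at that level) with a median of −0.01. *Ccna2* and *Rrm2* fell among 20 proliferation genes (−1.46 and −0.95; edgeR adjusted p = 0.00632 and 0.0483), with a median of −0.58; *Ccna2* passed in all 18 fits that left out 1 library and *Rrm2* in 9. With depth as a covariate *Eif6* (−0.75), *Fau* (−0.32), *Ccna2* (−1.62) and *Rrm2* (−1.04) all lost their calls. Differences between the lists were not tested.

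Between CD8+ T cells and TAMs of WT mice, 5.99% of all genes were higher in CD8+ T cells and 16.8% lower, with a median of −0.36. Of 70 biogenesis genes 2 were higher (*Gar1* 1.60 and *Npm1* 0.53) and 1 lower (*Rrn3* −2.96), with a median of 0.15. Of the 23 other mRNAs of translation 5 were higher (*Eef2* 0.78 and *Eef1a1* 0.58, both elongation factors, with *Eef1b2*, *Eef1g* and *Tpt1*) and 1 lower, with a median of 0.11. Of the 18 genes of the mTOR list 1 was higher and 4 were lower, with a median of −0.50. The higher one was *Pdcd4*, which encodes an inhibitor of translation initiation (4.22; edgeR adjusted p = 5.2e-08), and among the lower was *Eif4ebp1*, which encodes a repressor of cap-dependent translation (−1.20; edgeR adjusted p = 0.0288; passed in 30 of 36 fits that left out 1 library). Of the other calls named here *Npm1*, *Rrn3*, *Eef1b2*, *Eef1g* and *Tpt1* were lost in 1 to 4 of those fits, and with depth as a covariate none of the genes named here passed, the value of *Eif4ebp1* turning to 0.47.

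In *muMt*-/- mice, where 7.71% of all genes were higher in CD8+ T cells, 7 of 70 biogenesis genes and 12 of 23 other mRNAs of translation were higher. With GABA, where 7.93% of all genes were higher, the counts were 14 and 14. Of the 12 transcription factors known to act on ribosomal genes, 2 were higher in *muMt*-/- mice and 1 with GABA, and 0 were lower in either. Their medians were −0.13 and −0.04. In WT mice 0 of the 12 were higher and 1 was lower, with a median of −0.12. *Myc*, known to drive ribosome production, was higher in CD8+ T cells in *muMt*-/- mice (1.57) and with GABA (1.23), at edgeR adjusted p = 0.00188 and 0.00237. The second call was lost without replicate 1 of the CD8+ GABA group (0.82) and with depth as a covariate (1.47).

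The start of the gene carries the feature by which these mRNAs are best known, so promoters of 300 bases (250 before and 50 after the annotated start) were read from RefSeq for GRCm38.p6, where 68 of the 89 members matched. Pyrimidine motifs were searched on the sense strand from 30 bases before to 50 after the start. CTTTCC was present in 20 of 68 members (29.4%, against 4.4% of all promoters), CTTTTC in 9 (13.2% against 3.3%) and CTCTTTC in 12 (17.6% against 1.3%). Of these members 8 had the first and the last, and *Rpl4* the first and the second. At least 1 of them was present in 32 of 68 members (47.1%) and in 8.2% of 27025 promoters. CCGGAA, searched over the 300 bases on both strands, was present in 36 members (52.9%) and in 16.7% of all promoters, and AAGATGGC in 6 members (8.8%) and 3.2%. Members with and without a pyrimidine motif had medians of −0.46 and −0.47 for *muMt*-/- against WT TAMs, with 12 of 31 and 10 of 34 falling.

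The stretches of 30 bases below lie near the starts of genes named above, from RefSeq for GRCm38.p6. They are shown because they carry a pyrimidine motif (capitals) within 50 bases after the annotated start of a member that fell in *muMt*-/- TAMs or stood out between cell types. They are written 5′ to 3′ on the strand of the gene. *Rps27* and *Rps27rt* are shown together because their last 22 bases are identical.
*Rpl28* (chr7:4792957-4792986, plus strand): tcgtgtctCTCTTTCcgtctccggccgcca
*Rpl10* (chrX:74270836-74270865, plus strand): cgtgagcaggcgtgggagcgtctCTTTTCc
*Rps19* (chr7:24884612-24884641, plus strand): cgcccgggaaaccccgtcgttccCTTTCCc
*Rps27* (chr3:90213626-90213655, minus strand): tttcgctcCTTTCCggcggtgacgacctcc
*Rps27rt* (chr9:114982718-114982747, minus strand): atcccttgCTTTCCggcggtgacgacctcc
*Rpl13a* (chr7:45128715-45128744, minus strand): acctcctcCTTTCCcaggcggctgccgaag
*Rps26* (chr10:128626480-128626509, minus strand): gccggatcCTCTTTCgagtcttggctccaa
*Rps27rt* lies on another chromosome than *Rps27* and yet shares its start from the motif on. *Rps26* carries the same motif as *Rpl28*, and a relation between motif and level was not tested.

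Length and base composition of the mRNA differed little between the subunits. The median GC content was 51.2% for the 46 large-subunit and 50.9% for the 31 small-subunit core mRNAs, and the median length 789.5 and 774 bases. Across genes, which are not independent replicates, the log2 fold change of *muMt*-/- against WT TAMs had a Spearman correlation of −0.15 with GC content, 0.12 with length and 0.34 with mean level over the 77 core members. Over 9344 genes with a matched transcript the same values were −0.17, 0.25 and 0.04.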

How the data were processed

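The authors deposited a table of raw molecule counts: barcoded reads were aligned to mm10 with STAR, assigned to annotated genes, and identical barcodes were counted once. The table held 24781 genes in 36 libraries, of which 9188 had no molecule in any library. Spike-in RNAs were added to the samples, but the table held 0 spike-in entries, so absolute amounts could not be computed. From the counts, CPM values were computed for each library, and shares and ratios were described per library without a test.

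Genes with a mean above 1 normalized molecule were tested with edgeR 4.0.16 (TMM factors, quasi-likelihood F-test, Benjamini-Hochberg adjustment, threshold 0.05) in R 4.3.3, in separate fits of 18 libraries for TAMs (9469 genes) and CD8+ T cells (6663) and in a fit of all 36 (8477) for comparisons between them. Alternatives were DESeq2 1.42.0, other scalings and filters, a robust fit, depth as a covariate, the replicate number as a block, subsets of members and leaving out each library. Depth ran from 22896 to 304100 molecules. Promoters and gene coordinates came from RefSeq (GRCm38.p6). Transcript sequences, and with them length, GC content and identity of copies, came from GENCODE M21. Tables and figures were made with Python 3.11.15, pandas 2.3.3, numpy 2.4.6 and matplotlib 3.10.9. The main edgeR fit was first tested on simulated data, for *muMt*-/- against WT in each cell type and for CD8+ T cells against TAMs in WT mice. The other comparisons and the alternative settings were not simulated.

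Members and gene lists were chosen with earlier results of these data known. Not every member that the rule for naming takes is printed. Named members are, for each comparison, up to 6 rises and 6 falls that passed the threshold at a mean of 5 normalized molecules or more, or the 3 smallest p in each direction where fewer than 3 passed, then the 4 highest and 4 lowest levels of each cell type, untested members, paralogues with their parents, and *Rplp0*, *Rpsa*, *Rps6*, *Rpl10* and *Rps27a*.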

Additional observations from a re-analysis of the deposited data

Results flagged for a closer look

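In each group of 6 libraries, a value was singled out where the gap from the highest or lowest library to its neighbour, over the range of the group, passed Dixon's test at 0.05. This was applied to the share of molecules, the ratio of large to small, the depth and the named genes, 186 groups in all. Chance alone gives about 1 in 20 groups. Every value that passed is given below, and whether they exceed the number due to chance was not tested.

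Replicate 1 of the GABA-treated *muMt*-/- group recurred in both cell types. In CD8+ T cells it had the lowest *Rpl10* value of its group (755.0 CPM, group median 1999) and the highest *Rpl14* (2265, median 1188), *Rpl35a* (4050.4, median 2286) and *Rps12* (4418, median 3159). In TAMs the library with the same number had the highest *Rpl35a* (2812, median 1669), *Rps12* (3589, median 2408) and *Rps20* (2739, median 1978). Of the 77 core members, 52 had their lowest and 8 their highest value in the CD8+ library, and 46 and 12 in the TAM library. Such counts were not peculiar to these libraries: replicate 1 of the *muMt*-/- CD8+ T cells was the lowest for 53, replicate 4 of the *muMt*-/- TAMs the lowest for 48 and replicate 1 of the WT TAMs the highest for 55.

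In replicate 4 of the *muMt*-/- TAMs, *Rpl5* was at 275 CPM (median 558) and *Rps19* at 412 (median 835), both the lowest of the group. Replicate 1 of the WT TAMs had the highest *Rps16* (1749, median 1522) and *Rps4x* (1694, median 1349). *Rps25* stood apart in replicate 1 of the *muMt*-/- TAMs (1935, the highest, median 1406) and in replicate 2 of the *muMt*-/- CD8+ T cells (1507, the lowest, median 1867). The share of molecules on ribosomal protein genes was lowest in replicate 5 of the WT CD8+ T cells (16.3%, median 19.1%), which also had the highest macrophage marker sum of its group (2435 CPM). Why these libraries stood apart was not tested.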

How the results depend on the processing

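Settings were changed 1 at a time, except that counts at DESeq2's unadjusted p change both tool and threshold. No share of all genes is given for such counts in TAMs or between the cell types, or for fits that left out 1 library. Those counts show how the calls moved with the setting and not how the members stood among all genes. For *muMt*-/- against WT TAMs, the 29 calls became 0 with depth as a covariate (median −0.28) and 62 at DESeq2's unadjusted p (59 at edgeR's); leaving out 1 library gave 8 to 46. For GABA against *muMt*-/- TAMs, the 0 calls became 15 (DESeq2), 53 (DESeq2, unadjusted p; edgeR 54) and 1 (no filter, *Rpl37*), with 0 to 8 on leaving out 1 library. For GABA against WT TAMs they became 2, 15 (edgeR 12) and 1 (*Rpl28*), with 0 to 1. In CD8+ T cells DESeq2's unadjusted p gave 12, 14 and 6 members (edgeR 2, 18 and 12) for *muMt*-/- against WT, GABA against *muMt*-/- and GABA against WT. The median of *muMt*-/- against WT was −0.19 with total molecules and −0.20 with filterByExpr, and that of GABA against WT −0.0494 with filterByExpr.

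For CD8+ T cells against TAMs in WT mice, the count (both directions, 33 in edgeR) and median were 58 and 0.56 with DESeq2's factors, 66 and 0.73 with total molecules, 58 and 0.57 by DESeq2, 69 and 0.67 with filterByExpr, 15 and 0.24 with no filter, and 12 and 0.81 with depth; 67 had an unadjusted DESeq2 p under 0.05 (edgeR 45). Leaving out 1 library gave medians of 0.31 to 0.46. In *muMt*-/- mice the median was 1.07 with total molecules and 1.11 with depth, and with GABA 0.99 with depth. *Rps26* reversed to −0.19 with depth in WT mice.

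For the difference of *muMt*-/- responses, the median was −0.19 with DESeq2's factors and by DESeq2, −0.26 with filterByExpr and −0.17 with depth, and the 0 calls became 2 with no filter, 2 with only the groups compared and 11 at DESeq2's unadjusted p (edgeR 30), which gave 6 (edgeR 1) for the response to GABA. The ratio of large to small was 1.16 (*muMt*-/- CD8+), 1.22 (WT TAMs) and 1.12 (*muMt*-/- TAMs) with ribosomal proteins outside the naming rule added, and 1.23 in *muMt*-/- CD8+ T cells without the most abundant member of each subunit. The causes were not tested.

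The study's methods give 1 library per mouse. The labels do not say whether equal replicate numbers of different groups or cell types are related. Residuals of same-numbered libraries correlated from −0.38 to 0.46 (the highest for number 1 in CD8+ T cells of *muMt*-/- mice with and without GABA; 0.30 for number 1 of both cell types with GABA), and not every library correlated best with its own number, so the numbers were not used as pairs. With the number as a replicate block, 1 member (*Rpl28*) passed in the difference of *muMt*-/- responses in place of 0. Counting *Rpl32l* and *Rpl37rt* as paralogues, and so not as core members, was chosen after seeing the data. The shallowest library held 22896 molecules.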

Other observations

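The table also held 7 entries whose symbols mark pseudogenes of ribosomal proteins (-ps), which the rule leaves out. Their mean levels in WT TAMs were 765 CPM for *Rplp2-ps1*, 433 for *Rps19-ps3*, 418 for *Rpl34-ps1*, 216 for *Rps15a-ps6*, 134 for *Rpl14-ps1*, 103 for *Rpl31-ps12* and 22.7 for *Rps15a-ps4*. In *muMt*-/- TAMs the same means were 586, 363, 247, 312.5, 120, 45.8 and 4.11. In WT CD8+ T cells they were 1406, 674, 741, 403, 180.5, 127 and 18.1.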
